A study of Mus musculus with 24 samples.

Results

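The 6 arrays described here hold normoxic mouse retina collected at 16 h (3 arrays) and at 4 h (3 arrays) in a hypoxic preconditioning experiment, out of 24 arrays in the whole series, and they were chosen by their labels alone. All animals were BALB/c mice, an albino strain, homozygous for the light-sensitive leucine variant of Rpe65. Normoxic 16 h and normoxic 4 h retinas came from mice that breathed room air throughout and were handled in parallel with preconditioned animals. Hypoxic 16 h and hypoxic 4 h retinas, used here for comparison, came from mice kept at 6% O2 for 6 h and then returned to room air in darkness for 16 h or 4 h. Each array was hybridised with RNA of 1 pool of 3 retinas from 3 mice, and the pools were separate biological triplicates, so the spread between arrays is that between pools and hides the spread between animals. Neither the clock time of collection nor the age of the mice is given in the sources used here, so time of day, time spent in darkness and time since handling cannot be told apart between the 16 h and 4 h retinas.

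The mammalian retina carries its own circadian clock, in which the transcription factors Clock and Bmal1 (Arntl on the array) bind E-box elements and drive the Per, Cry, Nr1d and Ciart genes, whose products then repress this drive. Outputs of the clock in photoreceptors and inner neurons include dopamine and melatonin signalling, and several retinal transcripts are known to differ between day and night. Immediate early genes such as Fos and Egr1 answer light and neuronal activity within minutes in retinal neurons, whereas glucocorticoid-induced genes and the cold-inducible Cirbp are known to follow the daily course of stress hormone and body temperature in rodents.

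Signals are log2 values, so a difference of 1 is a 2-fold change. A probe set was tested when the mean of either group reached 6.69, the minimum between the 2 peaks of the signal distribution, and was called when limma's moderated test gave a Benjamini-Hochberg adjusted p under 0.05 over all probe sets tested. All adjusted p-values below are from limma. With 3 arrays against 3, an exact permutation test of a single gene could not go below p = 0.10.

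Array medians lay between 5.79 and 5.84 over the 24 arrays. The third array at 16 h stood apart: its mean Euclidean distance to the other arrays of the series was 67.8, against 55.5 to 58.6 for the other 5 arrays of these groups, and its beta-actin 3′ control probe set exceeded the 5′ one by 1.19 on the log2 scale, against 0.59 to 0.78 in those 5 arrays. The 3′ minus 5′ value of the transferrin receptor controls was 1.98, 2.26 and 2.27 in normoxic 16 h arrays and 1.99, 1.78 and 1.74 in normoxic 4 h arrays, so these values, which reflect how far cDNA extended from the 3′ end and also detect the gene Tfrc itself, were higher at 16 h in the second and the third arrays and overlapped in the first. The part of these values in the differences below was not tested, and the main counts are also given without the third 16 h array.

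At 16 h, 759 of 18485 probe sets tested (4.11%) differed from 4 h. Of these, 320 (1.73%) were higher and 439 (2.37%) were lower, and together they stood for 632 genes. The changes were small: the called probe sets had a median log2 change of 0.42 when higher and −0.55 when lower, and 24 exceeded 2-fold, 1 of them higher and 23 lower. The median over all probe sets tested was 0.01. The 3 arrays of each group did not overlap in 751 of the 759 called probe sets, against 25.3% of all those tested. Without the third 16 h array, 76 probe sets were called, 74 of them among the 759 and in the same direction. All 759 kept their sign, which could not change in the 751 without overlap when 1 array was left out. Without the first, the second or the third 4 h array, 184, 311 and 151 were called. The count also rested on the spread shared by all 24 arrays, since a fit on the 12 normoxic arrays alone called 26 probe sets and a fit on the 6 arrays alone called 29. Of 51 genes called and named below, 22 were called whichever of the 6 arrays was left out, and the direction of all 51 held under every alternative in which they were tested. In those without overlap, leaving out 1 array could not turn the direction. In none of the genes could the alternatives that keep the same difference of group means do so. These were another filter or threshold, trended variance, the 12 or the 6 arrays alone, a replicate block and the methods' t-test.

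Of 13 tested immediate early genes, 4 were called lower in normoxic retina at 16 h and none higher, against 2.37% and 1.73% of all probe sets, 10 had a negative and 3 a positive difference, and the median log2 change of the list was −0.20. The 4 were Egr1, Nr4a1, Fos and Ier2, all transcription factors or transcriptional regulators induced within minutes of a stimulus. Egr1, a zinc finger factor, had log2 signals of 9.05, 9.24 and 8.92 at 16 h, against 10.64, 10.77 and 10.89 at 4 h. It was thus 3.25-fold higher at 4 h than at 16 h, with no overlap and a log2 difference of −1.70 (SE 0.30, adjusted p = 0.00675). Nr4a1, an orphan nuclear receptor, had 8.17, 8.37 and 8.57 at 16 h and 9.66, 9.65 and 9.52 at 4 h (log2 difference −1.24, SE 0.16, adjusted p = 0.000849). Fos, a subunit of the AP-1 transcription factor, had 9.96, 9.65 and 9.41 at 16 h and 10.63, 10.78 and 10.89 at 4 h (log2 difference −1.09, SE 0.20, adjusted p = 0.00682). Ier2 was nearly the same in its 16 h arrays, at 8.44, 8.45 and 8.44, and lay at 8.71, 8.84 and 9.00 at 4 h (log2 difference −0.41, adjusted p = 0.0165).

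These genes parted the 16 h from the 4 h arrays in hypoxic animals as well. In hypoxic retina, Egr1 had 8.94, 9.46 and 9.80 at 16 h and 11.58, 11.45 and 11.34 at 4 h (adjusted p = 0.000276). Nr4a1, Fos and Ier2 also fell there, by 1.10, 1.07 and 0.35 on the log2 scale (adjusted p = 0.000343, 0.00199 and 0.0203). Egr1, Nr4a1 and Fos were called in normoxia whichever array was left out, with adjusted p = 0.0499 for Fos without the third 16 h array, whereas Ier2 was not called without the third 16 h array (adjusted p = 0.0748) or the third 4 h array (0.0877). Of the other tested members, Dusp1, a MAP kinase phosphatase, differed by −0.37 and Btg2, an antiproliferative cofactor, by 0.40, neither called (adjusted p = 0.0569 and 0.168). Jun, Junb, Jund, Nr4a2, Ier5, Atf3 and Klf6 lay between −0.20 and 0.35 without a call. A further 11 listed genes, among them Fosb, Arc and Npas4, stayed under the signal threshold in both groups.

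**Figure D1:**
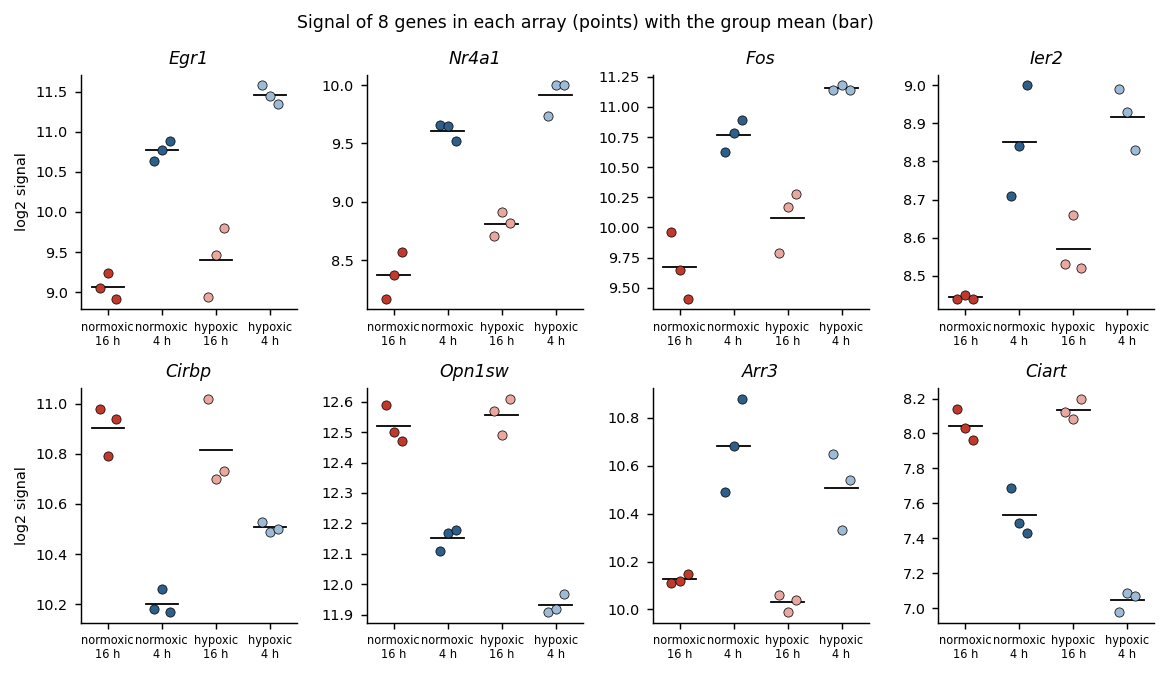
Log2 signal of 8 genes (y axis) in each of 3 arrays (points) of normoxic 16 h, normoxic 4 h, hypoxic 16 h and hypoxic 4 h retina (x axis), with the group mean as a bar. Egr1, Nr4a1, Fos, Ier2 and Arr3 lie lower and Cirbp, Opn1sw and Ciart lie higher in the 3 normoxic 16 h arrays than in the 3 normoxic 4 h arrays, with no overlap.

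The upstream windows of Fos and Nr4a1 are printed because these genes were called lower in every fit that left out an array and both hold the letters TGACG or their reverse complement CGTCA, the core of the cyclic AMP response element. A window was listed for 8218 of the 10079 genes tested. The windows run from 250 bases before to 50 bases after the transcription start, 5′ to 3′ on the gene's strand (RefSeq, GRCm38.p6, Fos at chr12:85473640-85473939 on the plus strand and Nr4a1 at chr15:101266596-101266895 on the plus strand), with these letters in capitals.
Fos: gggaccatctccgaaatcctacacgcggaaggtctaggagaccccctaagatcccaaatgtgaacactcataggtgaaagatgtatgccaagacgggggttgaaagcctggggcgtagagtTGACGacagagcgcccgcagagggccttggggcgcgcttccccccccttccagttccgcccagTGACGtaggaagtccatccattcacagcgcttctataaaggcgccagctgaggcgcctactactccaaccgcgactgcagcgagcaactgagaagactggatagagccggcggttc
Nr4a1: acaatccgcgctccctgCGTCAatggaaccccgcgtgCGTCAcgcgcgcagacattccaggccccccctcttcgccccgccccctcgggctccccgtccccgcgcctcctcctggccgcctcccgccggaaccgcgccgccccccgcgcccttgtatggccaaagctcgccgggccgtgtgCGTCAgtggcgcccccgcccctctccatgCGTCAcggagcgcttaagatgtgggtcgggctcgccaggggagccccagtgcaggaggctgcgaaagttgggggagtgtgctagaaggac
Fos held 2 such matches and Nr4a1 held 4, on either strand. These letters were chosen after the values were seen, and they are common: 20.8% of all promoter windows of this length held at least 1, as did 34.6% of the windows of genes called lower, 30.3% of those called higher and 31.7% of those of all genes tested. The full element TGACGTCA was in neither window, and the table used holds no window for Egr1 or Ier2.

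A cold-inducible gene was higher and 2 heat shock genes were lower at 16 h. Cirbp, a cold-inducible RNA-binding protein whose transcript is known to rise in cooler tissue, had 10.98, 10.79 and 10.94 at 16 h, against 10.18, 10.26 and 10.17 at 4 h. It was 1.63-fold higher at 16 h (log2 difference 0.70, SE 0.12, adjusted p = 0.00478) and was called whichever array was left out. In hypoxic retina the difference was 0.31 (adjusted p = 0.11), and the changes in the 2 treatments were not distinguished (adjusted p = 0.531 for their difference). Rbm14 and Srsf5, the other tested members of that list, were not called and had small negative differences, the lower at −0.11. Of the 3 tested, 1 was thus called higher (1.73% of all probe sets were), and the list median was −0.04. Among them 1 lay wholly below its 4 h arrays (11.6% of all probe sets did). Rbm3, also listed, had no probe set annotated to it alone and was not assessed. Of 17 heat shock response genes tested, 2 were called lower and none higher, against 2.37% and 1.73% of all probe sets. Of the 17, 16 had a negative difference and 9 lay wholly below their 4 h arrays (11.6% of all probe sets did). The list median was −0.19. Dnaja1, a co-chaperone of Hsp70, had 10.97, 11.01 and 10.96 at 16 h and 11.24, 11.28 and 11.27 at 4 h (log2 difference −0.28, adjusted p = 0.025), while its 2 other probe sets, at −0.09 and −0.05, were not called. Chordc1, which binds Hsp90, had 9.46, 9.73 and 9.46 at 16 h and 9.95, 9.95 and 9.81 at 4 h (log2 difference −0.35, adjusted p = 0.0377). In hypoxic retina Dnaja1 differed by −0.09 and Chordc1 by 0.01, neither called (adjusted p = 0.462 and 0.973). In normoxia both calls were lost without the third 16 h array (adjusted p = 0.114 and 0.195) or without any 1 of the 4 h arrays. The Chordc1 call was also lost without the first 16 h array (adjusted p = 0.0973). The abundant chaperones Hspa8 and Hsp90aa1 differed by −0.21 and −0.19 (adjusted p = 0.171 and 0.151).

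Of 16 core clock genes tested, 1 was called higher (1.73% of all probe sets were) and none lower, 4 lay wholly above and 1 wholly below (13.7% and 11.6% of all probe sets did), and the median difference was 0.03. The called gene was Ciart, a repressor of the Clock and Bmal1 complex, with 8.14, 8.03 and 7.96 at 16 h and 7.69, 7.49 and 7.43 at 4 h (1.42-fold higher, log2 difference 0.51, SE 0.13, adjusted p = 0.0324). Ciart was also higher at 16 h in hypoxic retina, with 8.12, 8.08 and 8.20 at 16 h and 6.98, 7.09 and 7.07 at 4 h (log2 difference 1.09, adjusted p = 3.46e-05), and its change was not distinguished between treatments (adjusted p = 0.33). Hypoxic retina also had calls in clock genes that were not called in normoxia: Cry1 was lower (−0.70, adjusted p = 0.00115), and Bhlhe40 and Dbp were higher (0.29 and 0.30, adjusted p = 0.0216 and 0.0156), without a called difference between treatments (adjusted p = 0.154, 0.46 and 0.68). In normoxia Ciart was called in 1 of the 6 fits that left out an array, with adjusted p between 0.045 and 0.131.

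Among the activators, Clock differed by 0.31 without overlap (9.92 to 10.01 at 16 h, 9.58 to 9.78 at 4 h) and just missed the threshold (adjusted p = 0.0508), while another of its probe sets was called higher (0.53). Arntl, its partner, had 9.79, 9.89 and 9.85 at 16 h and 9.81, 9.86 and 9.91 at 4 h, a difference of −0.01 with an SE of 0.10. Npas2, a paralogue of Clock, was under the threshold at both times. The repressors Per1, Per2, Per3, Cry1 and Cry2 differed by 0.04, 0.10, 0.05, −0.03 and 0.05, with SEs of 0.08 to 0.24, and their arrays overlapped. The nuclear receptors Nr1d1, Nr1d2, Rora and Rorb, which bind the Bmal1 promoter, differed by 0.02, −0.14, −0.15 and −0.15, none called for the probe set of highest signal. Another probe set of Nr1d2 was called lower (−0.83), with the same sign as its strongest probe set. Of the other Rora probe sets, 1 was called in each direction, within a range of −0.56 to 0.31. The array therefore does not give a single direction for Rora. Timeless and Csnk1e differed by 0.35 and 0.17 with no overlap and no call (adjusted p = 0.0799 and 0.231), and Bhlhe40 and Csnk1d lay within 0.01 of 0. The clock output factors Dbp, Tef, Hlf and Nfil3, which bind D-box elements, differed by 0.11, −0.03, 0.24 and 0.02. Dbp had 11.75, 11.67 and 11.80 at 16 h and 11.64, 11.61 and 11.64 at 4 h, without overlap, and was not called (adjusted p = 0.459), and a second Tef probe set was called lower (−0.78).

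**Figure D2:**
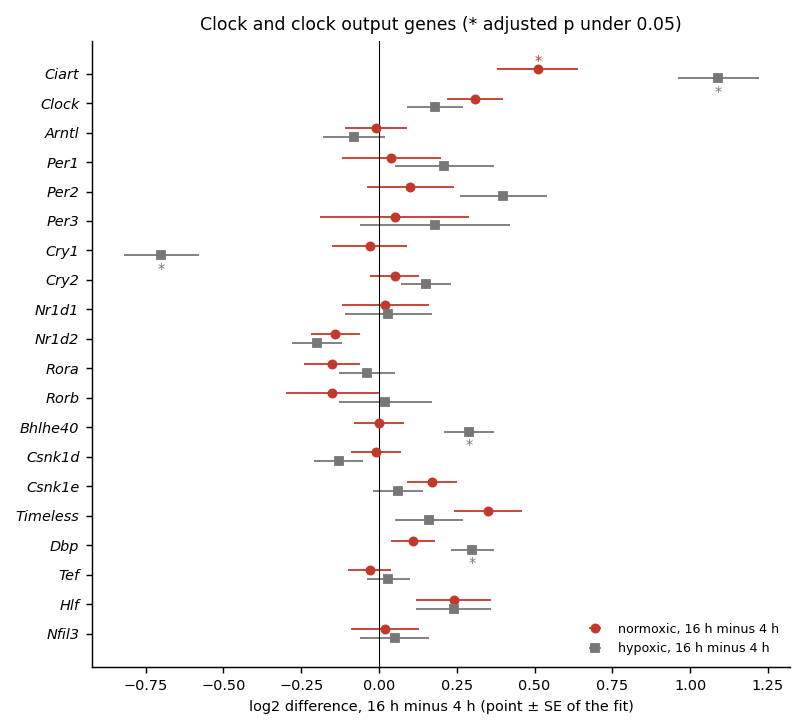
Log2 difference of 16 h minus 4 h (x axis, point ± SE of the limma fit) for the 20 tested clock and clock output genes (y axis) in normoxic retina (red circles) and hypoxic retina (grey squares), with an asterisk where the adjusted p is under 0.05. In normoxic retina only Ciart, at 0.51, carries an asterisk, and most other genes lie within 0.20 of 0.

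The upstream windows of Ciart and Per1 are shown to set the 1 called clock gene beside a clock gene that was not called (Per1 at 7.70, 7.87 and 8.31 at 16 h and 8.09, 7.91 and 7.76 at 4 h). They are taken as above (RefSeq, GRCm38.p6, Ciart at chr3:95882179-95882478 on the minus strand and Per1 at chr11:69098699-69098998 on the plus strand, the first of 2 Per1 starts), with the E-box CACGTG, which is its own reverse complement, in capitals.
Ciart: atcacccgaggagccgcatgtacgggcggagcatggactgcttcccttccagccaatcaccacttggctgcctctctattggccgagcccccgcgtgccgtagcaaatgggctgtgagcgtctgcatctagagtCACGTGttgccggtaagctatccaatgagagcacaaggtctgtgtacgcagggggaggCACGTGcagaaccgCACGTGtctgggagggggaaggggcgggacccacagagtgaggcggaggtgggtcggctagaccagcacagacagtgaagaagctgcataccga
Per1: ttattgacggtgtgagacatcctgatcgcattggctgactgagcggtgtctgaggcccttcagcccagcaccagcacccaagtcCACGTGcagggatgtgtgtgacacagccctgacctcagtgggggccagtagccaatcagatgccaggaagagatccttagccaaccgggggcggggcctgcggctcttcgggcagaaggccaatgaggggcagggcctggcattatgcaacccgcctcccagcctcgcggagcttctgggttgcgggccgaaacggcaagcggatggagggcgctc
Ciart held 3 E-boxes and Per1 held 1. At least 1 E-box stood in 7.15% of all promoter windows, and in 11.8% of the windows of genes called higher (36 of 304), in 44 of 439 windows of genes called lower and in 10.1% of those of all genes tested. The match is a description of letters in these windows.

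Genes of rhythmic retinal signalling were not called in their probe sets of highest signal. Drd4, a dopamine receptor of photoreceptors, had 12.40, 12.41 and 12.52 at 16 h and 12.53, 12.60 and 12.71 at 4 h (log2 difference −0.17, adjusted p = 0.458), and Adcy1, the calcium-stimulated adenylyl cyclase, had 11.02, 11.17 and 11.19 at 16 h and 10.92, 10.92 and 10.87 at 4 h (0.23, adjusted p = 0.131). Both pairs of groups were apart, but by less than the test could call. Ppargc1a, a transcriptional coactivator of mitochondrial genes, differed by 0.10 in its strongest probe set, and another of its probe sets, singled out after its values were seen, had 8.08, 8.22 and 7.94 at 16 h and 7.61, 7.78 and 7.59 at 4 h (0.42, adjusted p = 0.0206, and 0.0509, 0.0738 and 0.0841 without the second 16 h array and without the first and the third 4 h arrays). Th, Aanat, Mtnr1a and Opn4, which serve dopamine synthesis, melatonin synthesis, melatonin reception and melanopsin phototransduction, stayed under the signal threshold in both groups.

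Of 15 glucocorticoid-induced genes tested, none was called in its probe set of highest signal, 12 had a negative difference, 6 lay wholly below their 4 h arrays (11.6% of all probe sets did) and the median was −0.28. Klf9, a zinc finger factor, had 11.30, 11.47 and 11.53 at 16 h and 11.73, 11.69 and 11.91 at 4 h (−0.34, adjusted p = 0.0504). Sgk1, a kinase and the list member of highest signal, differed by 0.01. Among genes singled out after their values were seen, other probe sets were called: Fkbp5, a co-chaperone of the glucocorticoid receptor, had 7.21, 7.34 and 7.02 at 16 h and 7.84, 7.67 and 7.53 at 4 h (−0.49, adjusted p = 0.00682), and a second Klf9 probe set differed by −0.54 (adjusted p = 0.0275, called in 2 of the 6 fits that left out an array). Fam107a, an actin-binding protein known to be induced by stress and glucocorticoid in mouse brain, had 9.34, 9.48 and 9.40 at 16 h and 10.30, 10.37 and 9.95 at 4 h (1.74-fold higher at 4 h, log2 difference −0.80, adjusted p = 0.00844), and it fell by 0.94 in hypoxic retina (adjusted p = 0.00057). Fkbp5 and Fam107a were called whichever array was left out.

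HIF-1 targets, which rise when oxygen is low, mostly had lower values at 16 h without passing the test. Of 14 tested, none was called, 10 lay wholly below their 4 h arrays (11.6% of all probe sets did) and 1 wholly above, and the median was −0.24. The mean of the 14 genes was 9.65, 9.77 and 9.80 in the 16 h arrays and at least 9.88 in each of the 4 h arrays. Ak4, a mitochondrial adenylate kinase, differed by −0.60 and Ddit4, an inhibitor of mTOR signalling, by −0.51 (adjusted p = 0.0964 and 0.143). Bnip3, a mitophagy receptor, and Ndrg1, the members of highest signal, differed by −0.18 and −0.11, and 2 further Ndrg1 probe sets, in a range of −0.50 to −0.18, were called lower. Pdk1, which shunts pyruvate away from mitochondria, went the other way (0.42, adjusted p = 0.0758). In hypoxic retina the same 14 genes averaged 9.74, 9.74 and 9.73 at 16 h and 9.66, 9.74 and 9.71 at 4 h. Adm, Egln3 and Car9 were under the threshold at both times in normoxia, and Ddit4 also stands in the glucocorticoid list.

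Of the unfolded protein response, cholesterol and glycolysis lists, the first gave 1 call in the strongest probe sets and the others none. That call was lower, as were 2.37% of all probe sets. A weaker probe set of Slc2a3, of the glycolysis list, was called lower (−0.77, adjusted p = 0.0101, and 0.0463 without the third 16 h array). Xbp1, the transcription factor of that response, had 10.64, 10.75 and 10.82 at 16 h and 11.02, 11.12 and 11.08 at 4 h (−0.33, adjusted p = 0.0305), and in hypoxic retina it was at least 10.94 in each 16 h array and 10.74, 10.66 and 10.72 at 4 h (0.27, adjusted p = 0.0557). These opposite changes differed from each other by 0.60 (adjusted p = 0.0429). The normoxic call was lost without any array but the second 16 h array, with adjusted p of 0.0651 to 0.1. The 18 unfolded protein response genes had a median of −0.05, the 16 cholesterol synthesis genes a median of 0.09 with 14 positive differences, and the 21 glycolysis genes a median of −0.06. Hmgcs1, at the head of the cholesterol pathway, differed by 0.23 (adjusted p = 0.166), and Aldoa, the muscle-type aldolase, by 0.25 without overlap (adjusted p = 0.0765). Scd1, a fatty acid desaturase singled out after its values were seen, had 7.61, 7.49 and 7.63 at 16 h and 7.19, 7.03 and 6.98 at 4 h (1.42-fold higher, adjusted p = 0.00912), and it was called whichever array was left out.

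**Figure D3:**
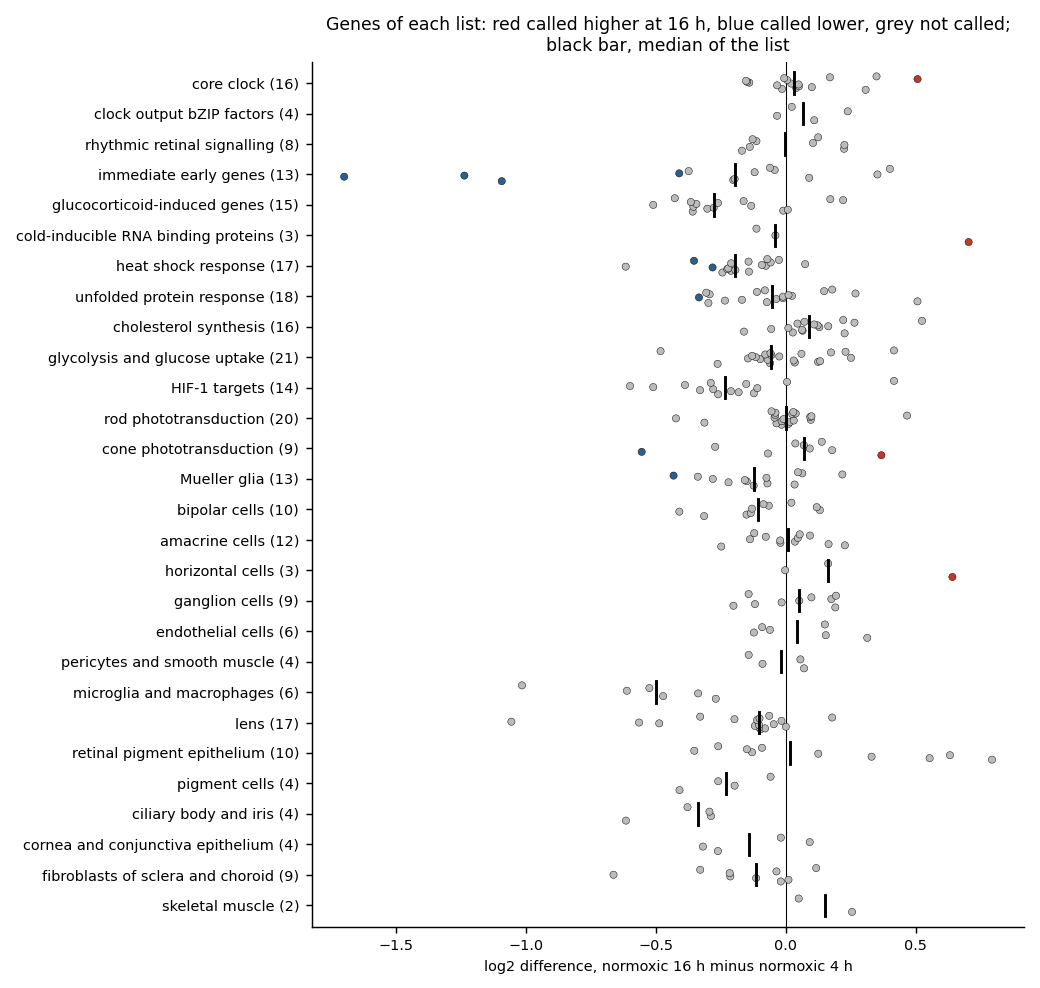
Log2 difference of normoxic 16 h minus normoxic 4 h (x axis) of each tested gene of every list with a tested gene (y axis, number of genes tested in brackets), with genes called higher in red, called lower in blue, not called in grey and the list median as a black bar. The 3 largest falls, Egr1, Nr4a1 and Fos, stand in the immediate early list, and the clock and rod lists centre within 0.10 of 0.

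No rod gene was called, and 2 cone genes were called in opposite directions. Of all probe sets, 1.73% were called higher and 2.37% lower, so a list of 20 rod genes with no call lies near that share. Of 20 tested rod phototransduction genes, 10 had a positive and 10 a negative difference (median 0.00), the widest being Rgs9 at 0.47, Grk1 at −0.42 and Pde6a at −0.31, which serve the shut-off of the light response and the cyclic GMP phosphodiesterase (adjusted p = 0.48, 0.0983 and 0.0912). Sag, rod arrestin, had 14.37, 14.28 and 14.34 at 16 h and 14.37, 14.36 and 14.28 at 4 h, and Gnat1, rod transducin, differed by −0.02. In bulk retina a lower level can stand for fewer cells of a type or for less RNA per cell, which cannot be told apart. Of 9 cone genes tested, Opn1sw, the short-wavelength cone opsin, had 12.59, 12.50 and 12.47 at 16 h and 12.11, 12.17 and 12.18 at 4 h (1.29-fold higher, log2 difference 0.37, SE 0.07, adjusted p = 0.0111). Arr3, cone arrestin, which quenches activated cone opsin, had 10.11, 10.12 and 10.15 at 16 h and 10.49, 10.68 and 10.88 at 4 h (1.47-fold higher at 4 h, log2 difference −0.55, SE 0.13, adjusted p = 0.0206). Both were called in the same directions in hypoxic retina (0.62 and −0.47, adjusted p = 3.33e-05 and 0.0243). Opn1sw was called whichever normoxic array was left out, and Arr3 was not called without the third 16 h array (adjusted p = 0.0783), the second 4 h array (0.0506) or the third 4 h array (0.105). A second Opn1sw probe set differed by 0.05, and neither of 2 further Arr3 probe sets, at −0.50 and −0.13, was called. Opn1mw, the middle-wavelength opsin, differed by −0.07 and Gnat2, cone transducin, by 0.18, neither called.

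Fscn2, a photoreceptor fascin that bundles actin, was singled out after its values were seen. It lay between 9.96 and 10.05 at 16 h and between 9.35 and 9.44 at 4 h (1.52-fold higher, adjusted p = 0.00478), changed by 0.60 in hypoxic retina (adjusted p = 0.000959) and was called whichever array was left out. Among the markers of other retinal cells, Car14, a carbonic anhydrase of Müller glia, had 9.93, 9.84 and 9.64 at 16 h and 10.37, 10.29 and 10.05 at 4 h (−0.43, adjusted p = 0.0326), and its fall in hypoxic retina was larger by 0.79 (adjusted p of the difference 0.0429). Its call was lost without the third 16 h array (adjusted p = 0.199), the first 4 h array (0.136) or the second 4 h array (0.0899). Lhx1, a transcription factor of horizontal cells, was called higher (0.64, adjusted p = 0.0267) although its arrays overlapped, at 6.76, 6.61 and 7.38 at 16 h and 6.12, 6.63 and 6.09 at 4 h. It was not called without the first or the third 4 h array (adjusted p = 0.113 and 0.127) and fell under the threshold without the third 16 h array. No bipolar, amacrine, ganglion, endothelial or pericyte marker was called in its strongest probe set among 10, 12, 9, 6 and 4 tested, with list medians from −0.11 to 0.05. Of all probe sets, 4.11% were called, so lists of this size without a call lie near that share. Weaker probe sets of Cabp5, a bipolar calcium-binding protein (−0.41), and of the pericyte marker Rgs5 (1 of 3, in a range of −0.59 to −0.41) were called lower.

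The 15 largest rises among called genes without overlap lay between 0.74 and 1.13 on the log2 scale. Med13l, a subunit of the Mediator kinase module, had 9.18, 8.93 and 9.13 at 16 h and 7.86, 8.10 and 7.90 at 4 h. It was the called gene that exceeded 2-fold upwards (2.19-fold, log2 difference 1.13, SE 0.18, adjusted p = 0.00391), and a second probe set was also called. In hypoxic retina Med13l differed by 0.36 without a call (adjusted p = 0.245, and 0.354 for the difference between treatments). Ptprr, a tyrosine phosphatase that acts on ERK, had 8.65, 8.31 and 8.61 at 16 h and 7.39, 7.76 and 7.49 at 4 h (1.97-fold, adjusted p = 0.00108), and changed by 0.90 in hypoxic retina (adjusted p = 0.000384). Dusp4, a nuclear phosphatase of MAP kinases, differed by 0.78 in normoxic and 0.96 in hypoxic retina (adjusted p = 0.0137 and 0.000998). Fam3c, a secreted cytokine-like protein, had 10.66, 10.43 and 10.71 at 16 h and 9.71, 9.88 and 9.70 at 4 h (1.78-fold, adjusted p = 0.000761), though another of its probe sets differed by 0.12. Its difference in hypoxic retina was 0.33 (adjusted p = 0.0584, and 0.293 for the difference between treatments). Ehd4, which acts in endocytic recycling, had 8.15, 7.94 and 8.12 at 16 h and 7.32, 7.32 and 7.12 at 4 h (1.77-fold, adjusted p = 0.00166), against a difference of 0.10 in hypoxic retina (adjusted p = 0.108 for the difference between treatments).

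St8sia1, the sialyltransferase that makes ganglioside GD3, changed differently in the 2 treatments. It had 7.40, 7.84 and 7.43 at 16 h and 6.62, 6.90 and 6.65 at 4 h (1.78-fold, adjusted p = 0.00437), while in hypoxic retina the 3 arrays at 16 h (7.45, 7.39 and 7.11) and at 4 h (7.56, 7.34 and 7.43) overlapped, and the changes differed by −0.96 (adjusted p = 0.0484). The remaining rises were Zfhx3, a homeobox factor with a known role in the central clock of mice (0.96), Ldb2, a cofactor of LIM homeobox factors (0.90), the heparan sulphate proteoglycan Sdc4 (0.80), BC037032 (0.77), the synaptic adhesion protein Nrxn3 (0.77), Dleu7 (0.77), the phosphatase subunit Ppp4r3a (0.75), the kinase Stk25 (0.74) and the chromatin remodelling subunit Smarcc1 (0.74). The 4 h mean of the Zfhx3 probe set was 5.84, under the signal threshold. Further probe sets of Zfhx3 (0.19 to 0.27), Nrxn3 (−0.04 to 0.34), Sdc4 (0.14) and Smarcc1 (0.18) were not called, while that of Ldb2 (0.43) was called higher. Med13l, Ptprr, Fam3c, St8sia1, Ehd4, BC037032 and Dleu7 were called whichever array was left out. Without the third 16 h array, Ldb2, Sdc4, Dusp4, Nrxn3, Ppp4r3a, Stk25 and Smarcc1 had adjusted p from 0.0673 to 0.181. Zfhx3 fell under the signal threshold in that fit. Of the 6 fits that left out an array, Sdc4 and Stk25 were called in 0, Ppp4r3a in 1 and Zfhx3 in 2. Dusp4 and Smarcc1 were called in 3 of them, Ldb2 in 4 and Nrxn3 in 5.

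Ccn4, a matricellular protein singled out after its values were seen, belongs with the stable rises, at 8.94, 8.97 and 9.00 at 16 h and 8.22, 8.43 and 8.29 at 4 h (1.58-fold, adjusted p = 0.00178). The smallest adjusted p of all, 6.18e-05, belonged to a fall. Csrp1, a LIM protein of the actin cytoskeleton, had 6.84, 6.94 and 6.73 at 16 h and 7.69, 7.92 and 7.73 at 4 h (1.92-fold higher at 4 h, log2 difference −0.94, SE 0.10), its other probe set was called too (−0.76), and it fell by 0.51 in hypoxic retina (adjusted p = 0.00341). Aqp1, a water channel, had 10.75, 10.92 and 10.98 at 16 h and 11.46, 11.54 and 11.44 at 4 h (−0.59, adjusted p = 0.00916), and Irf7, an interferon regulatory factor, had 7.68, 7.83 and 7.94 at 16 h and 8.78, 8.81 and 8.78 at 4 h (−0.97, adjusted p = 0.0126), against −0.08 in hypoxic retina (adjusted p = 0.327 for the difference between treatments). These 4 genes, Ccn4 included, were named after their values were seen and were called whichever array was left out. Cacna2d4, a calcium channel subunit of photoreceptor synapses also named afterwards, had 8.64, 8.67 and 8.28 at 16 h and 9.29, 9.29 and 9.34 at 4 h (−0.78, adjusted p = 0.00844, and 0.0625 without the third 16 h array), while its 2 other probe sets differed by 0.11 and 0.27. In hypoxic retina it had 8.88, 9.45 and 9.31 at 16 h and 8.97, 8.80 and 9.03 at 4 h, and the changes differed by 1.06 (adjusted p = 0.0315).

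Most of the other large falls leaned on the third 16 h array. Beside Egr1, Nr4a1 and Fos, the 15 largest falls were Tfrc, Atp6v0a1, Uhmk1, Ecpas, Dnm1l, Xiap, Nebl, Gmfb, Azin1, Usp12, Arhgap12 and Etnppl, with log2 differences of −1.33 to −1.05. Tfrc, the transferrin receptor, had 6.26, 6.60 and 4.59 at 16 h and 6.93, 7.16 and 7.34 at 4 h (adjusted p = 0.0277), and without the third 16 h array its difference was −0.71 (adjusted p = 0.157). Xiap, a caspase inhibitor, had 6.83, 6.87 and 4.94 at 16 h and 7.32, 7.54 and 7.51 at 4 h, and its difference of −1.24 became −0.61 (adjusted p = 0.296). Dnm1l, the GTPase of mitochondrial fission, had 7.77, 7.74 and 6.12 at 16 h and 8.31, 8.56 and 8.59 at 4 h, and its difference of −1.28 became −0.73 (adjusted p = 0.0737). In each of these genes the third 16 h array was the lowest and the other arrays still did not overlap.

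The same held for Uhmk1, Gmfb, Usp12, Azin1, Nebl and Arhgap12, at −0.60, −0.77, −0.50, −0.64, −0.83 and −0.76 without the third 16 h array (adjusted p from 0.0705 to 0.234). In Etnppl the difference was −1.18 (adjusted p = 0.0721), while a second Etnppl probe set stayed called without that array (−0.78, adjusted p = 0.042). Atp6v0a1, a subunit of the vesicular proton pump, had 8.25, 8.28 and 7.08 at 16 h and 9.33, 9.43 and 8.80 at 4 h, and together with Ecpas, a proteasome adaptor, was called whichever array was left out (−0.92 and −1.04 without the third 16 h array). The third 16 h array was the lowest of the 6 in 367 of the 439 probe sets called lower, and the highest in 214 of the 320 called higher. Other probe sets of the same genes often moved less: those of Ecpas lay at −0.11 and −0.07, those of Arhgap12 at 0.00 and 0.04, and the strongest Tfrc probe set at −0.14. For Tfrc, Atp6v0a1, Uhmk1, Gmfb, Azin1 and Etnppl, however, another probe set was also called lower. Over all called genes with further tested probe sets (497 genes, 965 probe sets), 693 of these had the same sign, 74 were called in the same direction and 3 in the opposite one.

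The 16 h and 4 h retinas were also set beside the other normoxic collection times. In some genes the 4 h mean was the highest or the lowest of the 4: the means of Egr1 over the 0, 2, 4 and 16 h arrays were 9.14, 10.14, 10.77 and 9.07, with the 2 h mean of Egr1 nearer to 4 h than to 0 h, and Nr4a1 and Fos were also highest at 4 h, while Med13l (8.88, 8.98, 7.95 and 9.08 in the same order), Ehd4 (8.26, 8.09, 7.25 and 8.07) and Cirbp (10.86, 10.55, 10.20 and 10.90) had their lowest mean at 4 h. In others the 16 h mean was the lowest or the highest, with Arr3 at 10.92, 10.70, 10.68 and 10.13, Dnaja1 at 11.20, 11.26, 11.26 and 10.98 and Stk25 at 8.21, 8.59, 8.16 and 8.91. Over the 320 probe sets called higher, the 0 h mean lay nearer to the 16 h mean in 143 and nearer to the 4 h mean in 177, and over the 439 called lower it lay nearer to the 16 h mean in 62 and nearer to the 4 h mean in 377. The 2 h mean lay nearer to the 16 h mean in 239 and nearer to the 4 h mean in 81 of those called higher. Of those called lower, it lay nearer to the 16 h mean in 195 and nearer to the 4 h mean in 244. These are descriptions of sets chosen on the 16 h and 4 h arrays. The same 16 h arrays, set against 0 h, gave 739 called probe sets of 18537 (3.99%), and against 2 h gave 4 of 18428 (0.0217%), all lower, with 1091 at an unadjusted p under 0.05; these comparisons were added after the data were seen and share the 16 h arrays.

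**Figure D4:**
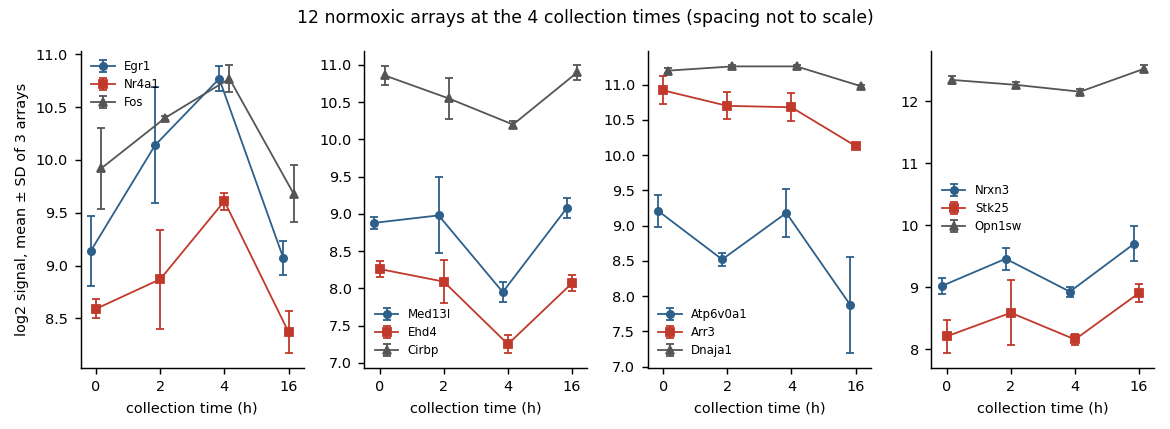
Mean ± SD of the log2 signal (y axis) over 3 normoxic arrays at 0, 2, 4 and 16 h (x axis, not spaced to scale) for 12 genes in 4 panels. Egr1, Nr4a1 and Fos peak and Med13l, Ehd4 and Cirbp have their minimum at 4 h, whereas Arr3 and Dnaja1 are lowest and Nrxn3, Stk25 and Opn1sw highest at 16 h.

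The hypoxic animals give the same collection times in separate mice and on separate arrays, at a different time since hypoxia. The 3′ minus 5′ value of the transferrin receptor controls was at least 2.15 in each hypoxic 16 h array. In the hypoxic 4 h arrays it was at most 1.79, so it was higher at 16 h in this treatment as well, without overlap. The beta-actin values of these arrays overlapped. The part of the transferrin receptor shift in the changes shared by both treatments was not tested. Of the 759 probe sets called in normoxia, 744 were also tested in hypoxic retina, where 697 (93.7%) changed in the same direction, against 67.5% of all 18260 probe sets tested in both. A call in the same direction was made for 249, which is 33.5% of the normoxic calls and 17.6% of the 1414 hypoxic calls (7.6% of 18602 tested, 4.46% higher and 3.14% lower; the 3 arrays of each group did not overlap in 34.0%), and none was called in the opposite direction. Probe sets called higher in normoxia had a median hypoxic difference of 0.28, and those called lower −0.33, on the log2 scale. Of the 74 calls that did not need the third 16 h array, 49 were called in the same direction in hypoxic retina. The direct test of the difference between treatments called 23 of 18827 probe sets (0.122%, with 1517 at an unadjusted p under 0.05), 4 of them among the normoxic calls: St8sia1, Xbp1, Car14 and Cacna2d4.

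Tissue carried over at dissection was checked with marker lists, and no gene of these lists was called in its strongest probe set (4.11% of all probe sets were called). Lens RNA was abundant in all 6 pools: the mean of 17 tested lens genes was 11.63, 11.74 and 11.06 at 16 h and 11.93, 11.40 and 11.68 at 4 h, against 7.34 in the lens-poorest normoxic pool of the series, at 0 h. Cryaa, the alpha A crystallin, had 14.21, 14.27 and 14.01 at 16 h and 14.30, 14.28 and 14.19 at 4 h. No lens gene was called, the list median was −0.10 and the ranges of the 2 groups overlapped in every lens gene. With the lens mean of each array as a covariate, 673 probe sets were called, 658 of them among the 759 and in the same direction. The list median turned to 0.06 without the third 16 h array, the lens-poorest of the 6.

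Of 19 retinal pigment epithelium genes on the array, 10 were tested and none was called (median 0.02, 5 positive and 5 negative differences, 2 wholly below against 11.6% of all probe sets). Rrh, an opsin-like protein of the pigment epithelium, came nearest to a call (−0.35, adjusted p = 0.0587), and Pmel, Cltrn and Krt18 differed by −0.26, −0.15 and −0.13. Rpe65, the visual cycle isomerase, and Ttr, transthyretin, differed by 0.79 and 0.63 (adjusted p = 0.436 and 0.55), with Ttr at 10.48, 10.35 and 9.50 at 16 h and 10.63, 9.58 and 8.22 at 4 h. The pigment epithelium mean was 8.07 to 8.42 at 16 h and 7.81 to 8.49 at 4 h, the low end being the third array in each group, and Lrat, Best1 and Stra6 were under the signal threshold. All 4 tested genes of ciliary body and iris lay wholly below their 4 h arrays (11.6% of all probe sets did) without a call in the strongest probe set (median −0.34), as in Col9a1 with 9.41, 9.46 and 9.61 at 16 h and 9.84, 9.97 and 9.80 at 4 h (adjusted p = 0.127), of which a weaker probe set was called lower (−0.46). The 6 tested microglia and macrophage genes differed by −0.27 to −1.01 without a call and with overlap in each: the list mean was 6.99 to 7.38 at 16 h and 7.09 to 8.27 at 4 h, highest in the first 4 h array. Pigment cell, corneal, fibroblast and muscle lists had no call, and no erythroid gene reached the threshold. The part of these tissues in the differences above was tested only for lens, through the covariate.

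**Figure D5:**
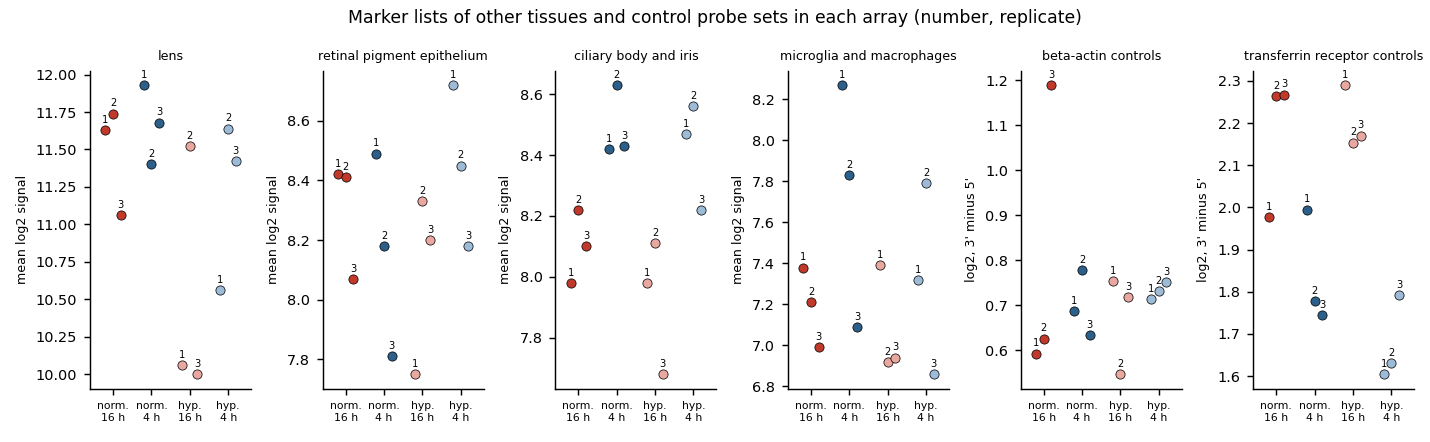
Mean log2 signal of the tested genes of 4 marker lists, and 3′ minus 5′ log2 signal of 2 sets of control probe sets (y axes), in each array of normoxic 16 h, normoxic 4 h, hypoxic 16 h and hypoxic 4 h retina (x axis), each point numbered by replicate. Lens, pigment epithelium and microglia means overlap between normoxic 16 h and 4 h arrays, ciliary body and iris means do not, and the third normoxic 16 h array stands apart at 1.19 in the beta-actin panel.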

How the data were processed

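RNA of 24 retinal pools was hybridised to Affymetrix Mouse 430 2.0 arrays, 3 for each of 8 groups, and 6 arrays carry the main comparison. Samples were grouped by their titles, and every column of the deposited table belongs to a sample (0 unused columns). The authors deposited log2 expression values, 1 per probe set. The submitters' processing notes name RMA and the study's methods name GCRMA, so which of these produced the deposited values is not settled. No further normalization was applied, and scanner files were not used here.

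Of 45101 probe sets, 64 controls were left out. Values were tested with limma 3.58.1 in R 4.3.3, using a model of group means over all 24 arrays (16 residual degrees of freedom) and the contrast of normoxic 16 h minus normoxic 4 h. Probe sets whose mean reached 6.69 in either group were tested, and the Benjamini-Hochberg adjustment ran across all of them. The threshold is the minimum between peaks at 3.8 and 7.9 in the density of all values. The same model gave the hypoxic contrast and the difference between both contrasts. Tables and figures were made with Python 3.11.15, pandas 2.3.3, NumPy 2.4.6, SciPy 1.17.1 and matplotlib 3.10.9. The scripts were tested on simulated data.

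Gene symbols come from the platform annotation, in which 34958 probe sets name 1 gene, 932 several and 9160 none, and 34754 were matched by gene identifier to RefSeq. In the lists, a gene is given by its probe set of highest mean signal; the largest rises and falls and the genes named afterwards are given by the called probe set. Named genes are up to 15 largest rises and 15 largest falls among called probe sets without overlap, up to 4 called genes of each list (or 2 of highest signal where none was called) and all clock genes; 11 further probe sets were named after their values were seen. The members and lists were chosen with earlier results of these data known. The number of arrays limits the precision. Alternatives were other filters, normalizations, variance models, sample sets, the methods' t-test, a replicate block, a lens covariate and leaving out each array.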

Additional observations from a re-analysis of the deposited data

Results flagged for a closer look

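The change between 16 h and 4 h was tested for a difference between hypoxic and normoxic retina, and 23 of 18827 probe sets passed at an adjusted p under 0.05 in limma's test, with the smallest at 0.000496 for Kif4, a kinesin of dividing cells (−1.98 in hypoxic and 0.04 in normoxic retina, below the signal threshold in the normoxic pair). Of these, 4 were also called in normoxic retina. The difference, hypoxic minus normoxic on the log2 scale, was −0.96 for St8sia1 (−0.13 in hypoxic and 0.83 in normoxic retina), 0.60 for Xbp1 (0.27 and −0.33), −0.79 for Car14 (−1.22 and −0.43) and 1.06 for Cacna2d4 (0.28 and −0.78), with adjusted p of 0.0484, 0.0429, 0.0429 and 0.0315. In Car14 both treatments moved downwards and the hypoxic change was the larger, while in Xbp1 the 3 arrays of each time did not overlap in either treatment and the changes had opposite signs. Time since hypoxia differs between the hypoxic 16 h and 4 h retinas and cannot be told apart from collection time there.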

How the results depend on the processing

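All 759 calls kept their sign without the third 16 h array, which could not change in the 751 without overlap. None of the 759 was called in the opposite direction under any alternative run at probe set level. Over 22 alternatives, the 51 called genes named here gave 741 values that stayed past the threshold, 350 that no longer did and 0 that reversed. Where the arrays did not overlap, a reversal was not possible in the fits that left out 1 array. For any gene, it was also not possible with another filter or threshold, trended variance, the 12 or the 6 arrays alone, a replicate block or the methods' t-test. These keep the same difference of group means, so the 0 reversals there were fixed in advance. The number of calls varied with the setting. It was 381 with no filter on low signal (139 higher, 242 lower), 26 with the 12 normoxic arrays alone (13 higher, 13 lower), 29 with the 6 arrays alone (13 higher, 16 lower), 1488 at an adjusted p under 0.1 (687 higher, 801 lower) and 273 with probe sets averaged to 1 value per gene (133 higher, 140 lower), where genes and not probe sets were counted. The methods' t-test gave 99 at an unadjusted p under 0.001 (67 higher, 32 lower) and 1 after Benjamini-Hochberg (1 higher, 0 lower). Trended and robust variance gave 505 higher, and array weights gave 290 lower. Leaving out 1 array gave 76 to 1022 calls, 26 to 337 higher and 50 to 685 lower, the lowest of each without the third 16 h array.

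Whether the array numbers pair the samples was not settled. Deviations of same-numbered arrays correlated at 0.108, −0.143 and −0.164, and those of differently numbered arrays between −0.302 and 0.287. So few arrays cannot decide it. A replicate block over all 24 arrays called 786 probe sets, 701 of them shared, and over the 6 arrays alone it called 1 (0 higher, 1 lower).

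In the core clock list, where 1 gene was called, the number was 0 with no filter, with the 12 or the 6 arrays alone, with the block on 6 arrays and with the methods' t-test at either threshold, 2 with the threshold higher by 1, median centring, trended variance or gene means, 3 with quantile normalization or an adjusted p under 0.1, and 0 to 1 without 1 array, when the list median was 0 to 0.079. The pigment epithelium list had 1 call with quantile normalization, trended variance or an adjusted p under 0.1 and 0 to 1 without 1 array (median −0.044 to 0.076). The lens list had 0 calls throughout, with a median of −0.20 to 0.06 without 1 array. The number called in the same direction in hypoxic retina was 119 with no filter, 382 with trended variance, 523 at an adjusted p under 0.1 (91.2% of the same sign) and 54 to 263 without 1 array (93.4% to 96.6%). The difference between treatments gave 15 calls with no filter, 62 with trended variance, 57 with array weights and 12 to 26 without 1 array. The cause of these shifts was not tested, and the number of arrays limits what could be called.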
